A study of Mus musculus with 6 samples.

Results

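Genes for RNA splicing factors and RNA helicases were examined in the hearts of diabetic mice given a variant of fibroblast growth factor 1. Members were taken by name alone, as every gene of the deposited table whose symbol begins with Srsf, Hnrnp, Sf3a, Sf3b, Snrp, Snrnp, Ddx, Dhx, Rbm, Rbfox, Prpf, Lsm, Celf, Cpsf or Mbnl, with pseudogene names left out. This gave 27 of the 4132 genes analysed here. The table holds only part of a transcriptome, so genes such as *Rbm20*, *Mbnl1*, *Celf1*, *Rbfox1* and *Srsf1*, which regulate splicing in heart muscle, were not analysed here, and no gene of the Lsm, Rbfox, Celf or Mbnl families was among the members.

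All mice were male *db/db* mice of the C57BLKS/J strain, labelled as genotype lepr-/-. They are homozygous for the *db* mutation of the leptin receptor gene in every tissue and become obese and diabetic. The treated group received FGF1ΔHBS, an FGF1 with residues of its heparan sulfate-binding site replaced, by intraperitoneal injection at 0.5 mg/kg on alternate days for 16 weeks, starting at 10 weeks of age. The vehicle group received saline on the same schedule, and the labels give an age of 26 weeks in both groups. RNA was sequenced from the heart of 3 mice per group. No non-diabetic mouse was sequenced, so the comparison is between treated and vehicle *db/db* mice only. In the paper, treated *db/db* mice weighed less than vehicle mice and had blood glucose near that of non-diabetic mice. The part of weight and glucose in the differences below was not tested. Levels are given as FPKM, a unit that divides a gene's fragments by its transcript length and by the size of the library.

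Splicing removes introns from a new transcript. It is carried out by the spliceosome, which is built from small nuclear ribonucleoproteins (snRNPs), each a short RNA with a ring of Sm proteins and particle-specific proteins. SR proteins and hnRNP proteins bind the transcript itself and steer which exons are kept. DEAD box and DEAH box helicases use ATP to remodel RNA, and many of them work outside splicing, in ribosome assembly, in mitochondria or in the sensing of viral RNA.

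The libraries were of similar depth, none shallower than vehicle replicate 1 and the deepest 1.21 times as deep, judged by the steps between low values. Heart muscle markers were high in all of them, with 3 of 11 listed cardiomyocyte genes analysed and summed levels of 10799 to 13168 FPKM. Of the other cell types, the fibroblast gene *Dcn* was at 154 to 288 FPKM with vehicle and at 368 to 431 FPKM with FGF1ΔHBS, and the smooth muscle gene *Acta2* was at 10.3 to 14.1 and at 17.5 to 27.3 FPKM. *Adipoq*, the defining fat gene on the list, stayed at or below 1.21 FPKM, although the account of the extraction in the labels speaks of adipose tissue. The endothelial genes *Emcn* and *Tie1* summed to 21.7 to 46.7 FPKM with vehicle and 24.9 to 42.0 FPKM with FGF1ΔHBS, and the erythroid gene *Hbb-bt* was at 192 to 397 and at 118 to 204 FPKM. The kidney gene *Slc12a1* reached 0.844 FPKM, in FGF1ΔHBS replicate 3, and no liver gene of the list was analysed. Vehicle replicate 3 stood apart: the leukocyte gene *Ptprc* was at 3.43 FPKM there against 1.32 and 1.67 FPKM in the other vehicle mice, and the interferon-induced *Gbp10* was at 66.4 FPKM against 1.56 and 2.08 FPKM. Among the vehicle mice it also had the least *Dcn*, at 154 FPKM against 284 and 288 FPKM, and the least of both endothelial genes. *Emcn* was at 10.0 FPKM there against 23.0 and 23.6 FPKM, and *Tie1* at 11.6 FPKM against 21.5 and 23.1 FPKM. The endothelial genes were low in FGF1ΔHBS replicate 2 as well, with *Emcn* at 13.5 FPKM and *Tie1* at 11.4 FPKM. Main counts and the calls that change are also given without vehicle replicate 3.

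Of the 27 members, 24 had the mean of at least 1 FPKM that was required for the test, which was made by limma on log2(FPKM + 1). Log2 fold changes below are FGF1ΔHBS minus vehicle on that scale, which understates changes of low values. No member passed an adjusted p-value of 0.05 (limma, Benjamini-Hochberg over 2041 genes), a threshold met by 0.098% of all genes tested. Only *Ddx58* had an unadjusted p-value under 0.05, as a lower gene, or 1 member of 24, against 17.1% of all genes tested (10.0% lower and 7.1% higher). The vehicle and FGF1ΔHBS mice were fully separated for 3 members, *Ddx58* and *Ddx27*, which were lower (13.6% of all genes tested), and *Snrpd2*, which was higher, against 24.3% of all genes tested in either direction. On average 12 members were higher and 12 lower, where 54.8% of all genes tested were lower, and the members' median log2 fold change of -0.019 was next to the median of all genes tested, -0.021. A value close to 0 does not by itself show that a gene was the same in both groups, so the width of the intervals matters. On the log2(FPKM + 1) scale the 95% interval lay inside 1.5-fold in either direction for 23 of 24 members. This held for 81.5% of the 1511 genes in the same range of mean FPKM. The interval lay inside 2-fold for all 24 members, against 95.8% of those 1511 genes. In bulk tissue, a change in the number of cells that express a gene and a change in RNA per cell cannot be told apart.

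**Figure D1:**
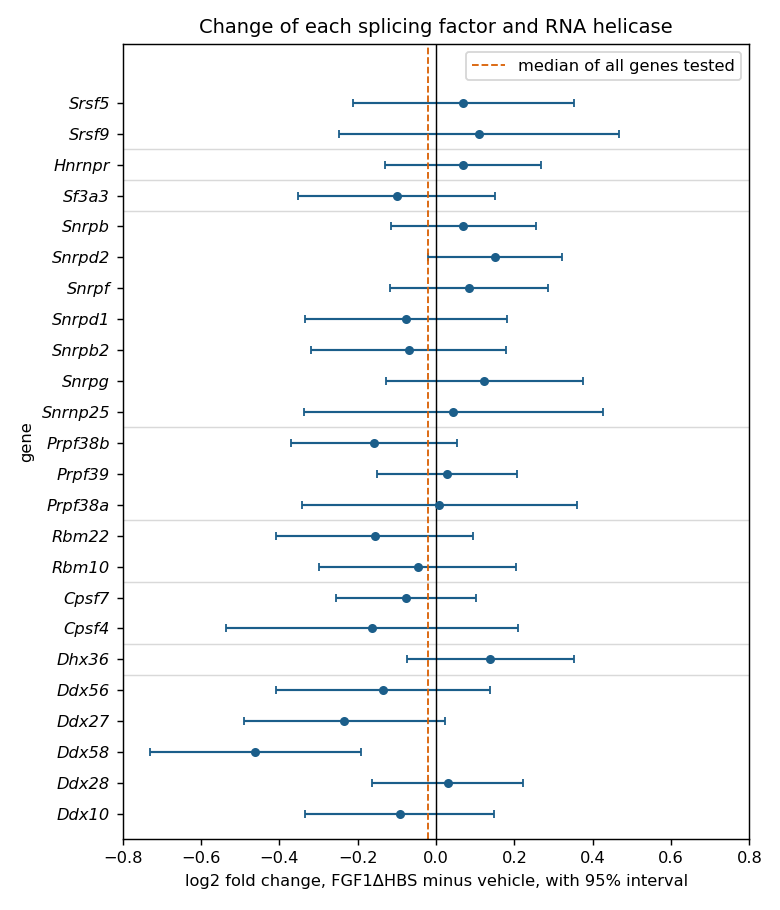
Log2 fold change of each of the 24 members tested (FGF1ΔHBS minus vehicle, log2(FPKM + 1) scale, 3 mice per group), with 95% intervals from limma; grey lines separate roles and the dashed line is the median of all genes tested, -0.021. Only the interval of *Ddx58* leaves out 0, and all others cross it.

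The levels themselves ran from 2.84 FPKM on average (*Ddx10*) to 133 FPKM (*Srsf5*), with a median member at 7.56 FPKM. Over the 6 mice the highest value of a member was between 1.10 times (*Prpf39*) and 1.79 times (*Ddx58*) its lowest, with a median of 1.29 times, against a median of 1.38 times over all genes tested. The within-group standard deviation had a median of 0.133 on the log2 scale over the members and 0.122 over genes in the same range of level.

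**Figure D2:**
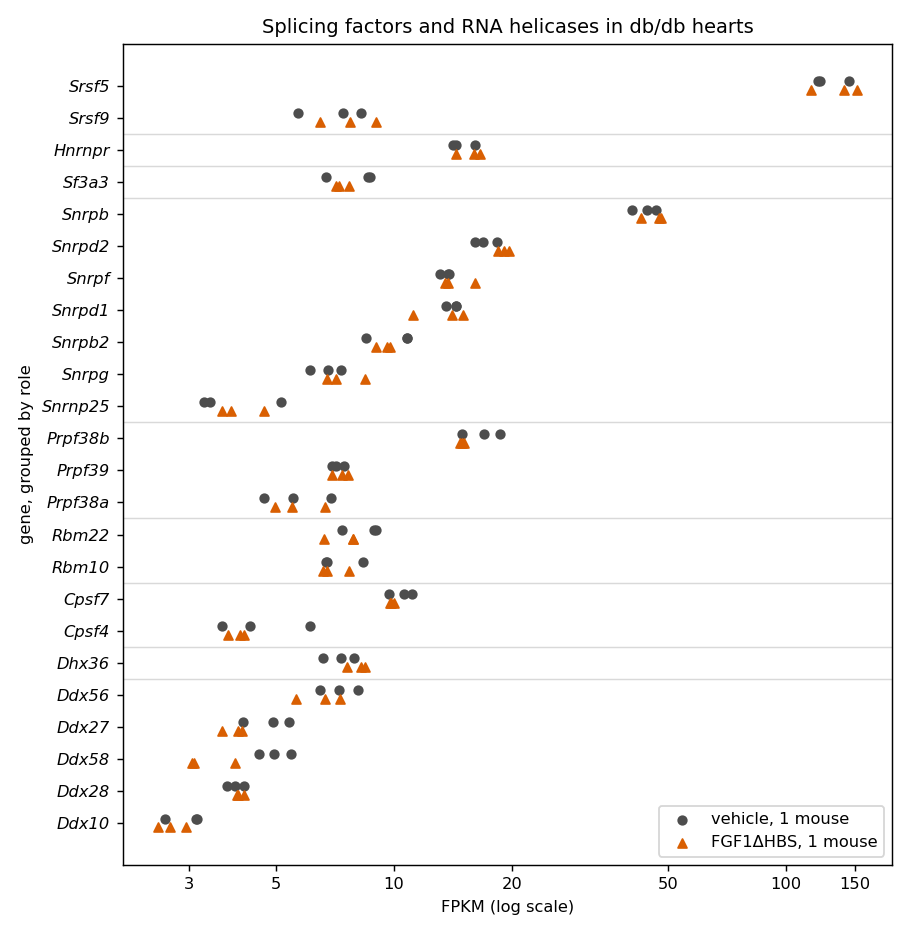
FPKM (log axis) of the 24 members tested in each mouse, circles for the 3 vehicle mice and triangles for the 3 FGF1ΔHBS mice, ordered by role. *Srsf5* and *Snrpb* stand above the rest, and the symbols of the groups intermingle for all members except *Ddx58*, *Ddx27* and *Snrpd2*.

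Among the SR proteins, *Srsf5* (ENSMUSG00000021134, chromosome 12 of GRCm38, 80945504 to 80950507) was the most abundant member. SR proteins bind exonic enhancers and promote the use of nearby splice sites. The vehicle mice had 121, 145 and 122 FPKM of *Srsf5* and the treated mice 116, 140 and 152 FPKM. The lowest and the highest mouse were thus both in the treated group, and the log2 fold change of 0.070 (95% interval -0.21 to 0.35, adjusted p = 0.817 by limma) was within the spread between mice. Its sign turned to -0.059 with quantile normalization. *Srsf9*, a second SR protein gene, was at 8.23, 7.43 and 5.71 FPKM with vehicle and reached 8.99 FPKM with FGF1ΔHBS, with overlapping groups (log2 fold change 0.11, adjusted p = 0.771 by limma), and without vehicle replicate 3 the log2 fold change turned to -0.021. *Hnrnpr*, the only hnRNP gene here, encodes an RNA-binding protein of nascent transcripts. It was at 14.1 to 16.1 FPKM with vehicle and 14.4 to 16.6 FPKM with FGF1ΔHBS, with a log2 fold change of 0.069 (95% interval -0.13 to 0.27).

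The Sm proteins form the ring on the RNAs of the spliceosome, and 5 of their genes were analysed: *Snrpb*, *Snrpd1*, *Snrpd2*, *Snrpf* and *Snrpg*. Of these, 4 were higher and 1 was lower on average, and none passed an unadjusted p-value under 0.05. *Snrpd2* (ENSMUSG00000040824, chromosome 7, 19149722 to 19153542) was at 16.9, 16.1 and 18.3 FPKM with vehicle and at 19.1, 19.7 and 18.4 FPKM with FGF1ΔHBS. Every treated heart was above every vehicle heart, although the nearest pair was 18.4 and 18.3 FPKM. With median ratio scaling the groups overlapped. Its log2 fold change was 0.15 (standard error 0.0727, unadjusted p = 0.0756, adjusted p = 0.346 by limma), and a two-sided exact permutation test gave p = 0.1, the smallest that 3 mice against 3 allow. *Snrpb* (ENSMUSG00000027404, chromosome 2, 130171414 to 130179403), the most abundant Sm gene, was at 44.4, 46.6 and 40.6 FPKM and at 47.4, 42.8 and 48.0 FPKM, and the groups overlapped. *Snrpf* averaged 13.6 ± 0.371 and 14.5 ± 1.46 FPKM (SD, n = 3 each), the higher mean coming from 16.1 FPKM in FGF1ΔHBS replicate 1. The deposited locus of *Snrpf* is 9.68 times as long as the annotated gene. *Snrpd1* was at 14.1 ± 0.476 and 13.4 ± 1.98 FPKM (SD, n = 3 each), the lower mean coming from 11.2 FPKM in FGF1ΔHBS replicate 2. *Snrpg* was at 6.74 ± 0.613 and 7.44 ± 0.880 FPKM (SD, n = 3 each). In FPKM, which is scaled to length, *Snrpb* was the highest and *Snrpg* the lowest of these genes in each mouse. Their log2 fold changes lay between -0.077 and 0.15.

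The genes for proteins of single particles overlapped between the groups as well. *Snrpb2*, a protein of the U2 snRNP that marks the branch site, was at 8.48 to 10.8 FPKM with vehicle and 8.99 to 9.78 FPKM with FGF1ΔHBS. *Sf3a3*, a subunit of the SF3A complex in the same particle, was at 6.73 to 8.68 and 7.13 to 7.68 FPKM. In both genes the treated mice lay inside the range of the vehicle mice, and the lowest heart was vehicle replicate 3. *Snrnp25*, a protein of the minor spliceosome, which removes a rare class of introns, was at 3.28, 3.40 and 5.17 FPKM with vehicle, the last being vehicle replicate 3, and at 3.65 to 4.66 FPKM with FGF1ΔHBS. Its interval, -0.34 to 0.43 on the log2 scale, was among the widest of the members. Of the PRPF genes, *Prpf38b* (ENSMUSG00000027881, chromosome 3, 108902805 to 108911727), a relative of the spliceosome activation factor encoded by *Prpf38a*, was at 18.6, 17.0 and 14.9 FPKM with vehicle and at 15.1, 14.9 and 14.7 FPKM with FGF1ΔHBS. The treated hearts were close together at the lower end of the vehicle range (log2 fold change -0.16, 95% interval -0.37 to 0.052, adjusted p = 0.411 by limma). *Prpf38a* had a log2 fold change of 0.0086, but an interval of -0.34 to 0.36, and it turned to -0.11 without vehicle replicate 3. *Prpf39*, a partner of the U1 snRNP in the choice of alternative 5′ splice sites, was the member that varied least between mice, at 6.97 to 7.66 FPKM.

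*Rbm22*, part of the catalytic core of the spliceosome, averaged 8.43 ± 0.911 FPKM in the vehicle group and 7.45 ± 0.717 FPKM in the FGF1ΔHBS group (SD, n = 3 each). *Rbm10*, an X-linked regulator that favours exon skipping, was at 7.28 ± 0.933 and 7.00 ± 0.585 FPKM (SD, n = 3 each). Both were lower on average, with log2 fold changes of -0.16 and -0.047, and neither passed an unadjusted p-value under 0.05. *Cpsf4* and *Cpsf7* encode proteins of the machinery that cuts the end of a transcript and adds the poly(A) tail. *Cpsf7* was at 10.5 ± 0.712 and 9.88 ± 0.136 FPKM (SD, n = 3 each). *Cpsf4* was at 4.31, 6.12 and 3.64 FPKM with vehicle and at 3.78 to 4.15 FPKM with FGF1ΔHBS, so its lower mean rested on vehicle replicate 2, and without that mouse its log2 fold change was 0.0098 in place of -0.16.

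The helicases held the member with the largest difference. *Ddx58* (ENSMUSG00000040296, chromosome 4 of GRCm38, minus strand, 40203773 to 40239828) encodes RIG-I, a cytoplasmic sensor of viral RNA that switches on type I interferon and is itself induced by interferon; it is a DEAD box relative rather than a splicing factor. The vehicle mice had 4.54, 4.96 and 5.48 FPKM and the treated mice 3.94, 3.06 and 3.09 FPKM. Each treated heart was below each vehicle heart, and the means were 4.99 ± 0.467 FPKM and 3.36 ± 0.498 FPKM (SD, n = 3 each), a difference of 32.6% (two-sided exact permutation test, p = 0.1). On the log2 scale *Ddx58* differed by -0.46 (standard error 0.114, 95% interval -0.73 to -0.19, unadjusted p = 0.00471, adjusted p = 0.116 by limma). Over the 15 alternatives in which it was tested, its log2 fold change stayed between -0.56 and -0.40 and its adjusted p-value between 0.0907 and 0.357. Vehicle replicate 3, the mouse with high *Ptprc* and *Gbp10*, also had the highest *Ddx58*. Other interferon-linked genes, chosen after their values were seen, did not all share this pattern. *Nlrc5* was at 11.6 FPKM in that mouse against 1.09 and 1.03 FPKM in the other vehicle mice and 0.316 to 0.750 FPKM in the treated mice, and *Bst2* was at 26.3 FPKM against 7.96 and 9.68 FPKM, with 6.45 to 9.69 FPKM in the treated mice. *Irf7* was at 12.6 FPKM in vehicle replicate 3 against 3.91 and 3.71 FPKM in the other vehicle mice, with 2.94 to 4.50 FPKM in the treated mice. *Isg20* was at 3.69, 4.36 and 4.04 FPKM with vehicle and at 1.95, 3.53 and 2.56 FPKM with FGF1ΔHBS. Each treated mouse was lower in *Isg20* (unadjusted p = 0.0219, adjusted p = 0.205 by limma). *Irf2* was at 6.37, 9.45 and 7.29 FPKM with vehicle and at 5.58, 5.02 and 7.33 FPKM with FGF1ΔHBS. The groups of *Irf2* overlapped (unadjusted p = 0.0983 by limma). In *Isg20* and *Irf2* the highest vehicle mouse was not replicate 3. Without vehicle replicate 3, *Ddx58* was at a log2 fold change of -0.40 (unadjusted p = 0.0105, adjusted p = 0.0907 by limma), so the difference was also present between the remaining mice. *Ptprc* was at most at 1.21 FPKM in the treated mice, below each vehicle mouse, and *Dcn* was higher in each treated mouse; their part in the result was not tested.

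**Figure D3:**
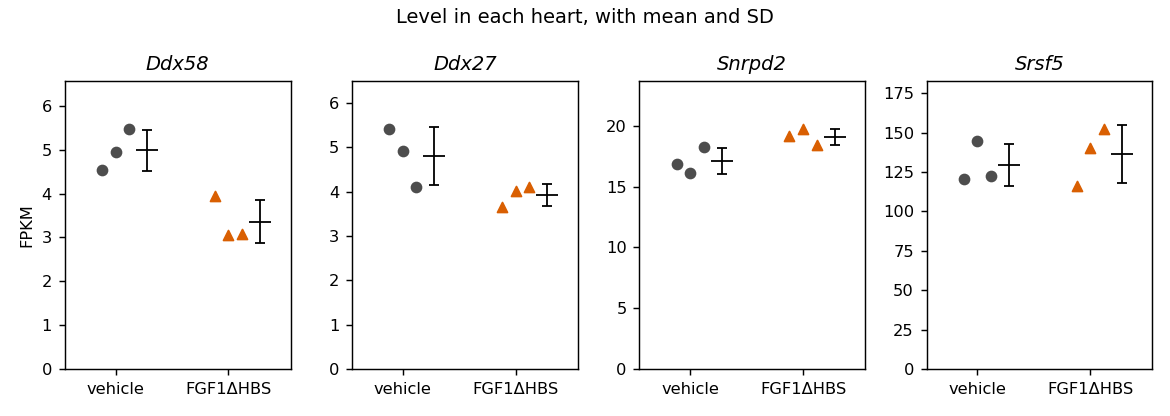
FPKM in each heart for *Ddx58*, *Ddx27*, *Snrpd2* and *Srsf5* (circles vehicle, triangles FGF1ΔHBS, bars the mean and SD of 3 mice, axes from 0). The groups of *Ddx58* are separated by a gap from 3.94 to 4.54 FPKM, those of *Ddx27* and *Snrpd2* only just part, and those of *Srsf5* overlap.

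The start site of *Ddx58* carries a match to the interferon-stimulated response element, the site of the STAT and IRF factors that act after interferon. A window of 30 bases from RefSeq (GRCm38.p6, chr4:40239804-40239833, minus strand) is shown because no other member with a promoter in the table has the match; capitals mark the match, at bases 3 to 12 after the start.
Ddx58: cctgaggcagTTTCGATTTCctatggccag
The motif searched was GAAA, any 2 bases and GAAA, on both strands, within 250 bases before and 50 after a start, and the match is to its reverse complement. Promoters were found for 22 of the 27 members, and *Ddx58* was the only one of them with this match, against 3.99% of 27025 genes with a promoter in the table and 3.57% of the tested genes among them. It was also the only member with TATAAA, found for 15.7% of all genes and 8.37% of tested genes. A second motif, the ETS core CCGGAAG, which is frequent at the start sites of genes used by every cell, was found for 8 of 22 members, against 9.93% of all genes and 20.2% of tested genes. The motifs were searched after the values had been seen, and matches of different motifs may overlap. For comparison, 3 windows with the ETS core in capitals are shown, from *Ddx27* (chr2:167015300-167015329, plus strand), *Dhx36* (chr3:62507017-62507046, minus strand) and *Srsf5* (chr12:80945465-80945494, plus strand).
Ddx27: actcgctacgtCCGGAAGtggctgcttctt
Dhx36: cgcgctgggcgCCGGAAGcaaagcagaggg
Srsf5: ctggcaccgccCCGGAAGtgacgccaggac
The GC box GGGCGG was found for 17 of 22 members, against 38.2% of all genes and 69.5% of tested genes. These matches describe letters in the windows and not the binding of a factor in these hearts.

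The other helicases are known from ribosome assembly, mitochondria and RNA structure. *Ddx27*, *Ddx56* and *Ddx10* act in the nucleolus in the making of ribosomes, and all 3 were lower on average with FGF1ΔHBS, none at an unadjusted p-value under 0.05. *Ddx27* (ENSMUSG00000017999, chromosome 2, 167015193 to 167034947) was at 5.41, 4.91 and 4.11 FPKM with vehicle and at 3.65, 4.02 and 4.11 FPKM with FGF1ΔHBS. The groups did not overlap, but vehicle replicate 3 and FGF1ΔHBS replicate 3 differed by less than the third digit. The log2 fold change of *Ddx27* was -0.23 (standard error 0.109, unadjusted p = 0.0676, adjusted p = 0.328 by limma). *Ddx56* was at 7.27 ± 0.802 and 6.54 ± 0.829 FPKM (SD, n = 3 each), and *Ddx10* at 2.96 ± 0.304 and 2.71 ± 0.226 FPKM (SD, n = 3 each). *Ddx28*, which serves the mitochondrial ribosome, was nearly level at 3.75 to 4.15 FPKM and 3.97 to 4.16 FPKM, but its deposited locus is 35.7 times as long as the annotated gene and takes in neighbours. *Dhx36* (ENSMUSG00000027770, chromosome 3, 62468013 to 62507004), which unwinds G-quadruplexes in RNA and DNA, was at 7.92, 7.34 and 6.59 FPKM with vehicle and at 7.58, 8.26 and 8.47 FPKM with FGF1ΔHBS. Its groups overlapped in 1 pair of mice, at a log2 fold change of 0.14 (95% interval -0.075 to 0.35, adjusted p = 0.484 by limma). With quantile normalization it was at 0.20 and an unadjusted p-value of 0.0410.

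Under the minimum level were *Cpsf4l*, at 0 to 0.248 FPKM, *Rbm44*, at 0 to 0.146 FPKM, and *Dhx58os*, at 0 to 0.112 FPKM. *Dhx58os* is an antisense RNA by the GENCODE annotation and no helicase, and was taken in by its name. No fold is given for these 3.

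Vehicle replicate 3 held the lowest value of 8 of 24 members (33.3%) and the highest of 2 (8.33%), against 26.9% and 15.8% of all genes tested. The members' share of lowest values was thus near that of all genes. FGF1ΔHBS replicate 3 held the highest value of 7 members (29.2%), against 12.2% of all genes tested. In vehicle replicate 3 the median deviation of the members from the mean of the 6 mice was -0.073 on the log2 scale. It was 0.070 and 0.055 in the other vehicle mice and -0.068 to 0.0020 in the treated mice, the lowest being FGF1ΔHBS replicate 2. Over all genes tested the deviation went the same way and was smaller, -0.030 in vehicle replicate 3 and 0.029 and 0.034 in the other vehicle mice. Without vehicle replicate 3, 6 members had an unadjusted p-value under 0.05, against 24.2% of all genes tested, and none passed an adjusted p-value of 0.05. The 5 lower ones stand against 16.1% of all genes tested. With 2 vehicle mice left, the groups did not overlap for 11 of 24 members, against 44.4% of all genes tested. The 6 members at an unadjusted p-value under 0.05 included *Ddx58* and *Ddx27* (log2 fold change -0.32, adjusted p = 0.0970 by limma). The others were *Prpf38b* (-0.24, 0.117), *Sf3a3* (-0.21, 0.179), *Rbm22* (-0.24, 0.189) and *Snrpd2* (0.20, 0.164). Only *Snrpd2* was higher. The median log2 fold change of the members was then -0.099, against -0.049 over all genes tested.

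**Figure D4:**
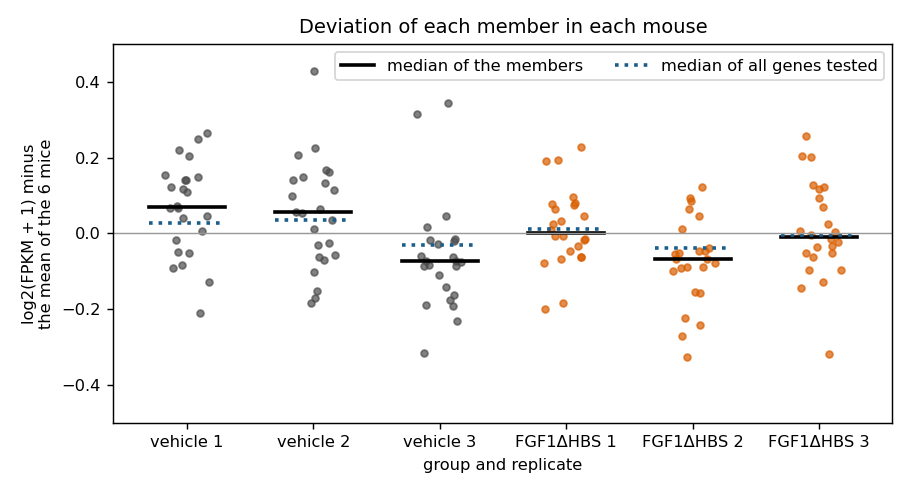
Deviation of each of the 24 members from its mean over the 6 mice (log2(FPKM + 1) scale) in each mouse, with the median of the members (solid) and of all genes tested (dotted). The members sit lowest in vehicle replicate 3 and FGF1ΔHBS replicate 2, with medians of -0.073 and -0.068.

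The rest of the splicing pathway was read from a list of 118 further genes, of which 21 were analysed and tested. None passed an adjusted p-value of 0.05. Of the 21, 4 had an unadjusted p-value under 0.05, against 17.1% of all genes tested in either direction. All 4 were lower with FGF1ΔHBS, against 10.0% of all genes tested that were lower at that level. *Srrm2*, a scaffold of the nuclear speckles where splicing factors gather, was at 60.6, 60.9 and 54.9 FPKM with vehicle and at 41.1, 45.2 and 47.6 FPKM with FGF1ΔHBS. Each treated heart was below each vehicle heart, with a log2 difference of -0.39 (standard error 0.0790, unadjusted p = 0.00158, adjusted p = 0.116 by limma). Without vehicle replicate 3 it was -0.44 and its adjusted p-value 0.0366 by limma, so the call over all genes depended on that mouse. In that setting 82 of the 2041 genes tested passed an adjusted p-value of 0.05, against 2 with all mice. *Wbp11*, a nuclear partner of the spliceosome, was at 12.6, 13.3 and 12.9 FPKM and at 11.2, 10.1 and 9.81 FPKM (log2 fold change -0.30, adjusted p = 0.119 by limma). *Acin1*, of a complex that sits on spliced RNA, was at 26.8, 26.8 and 25.3 FPKM and at 23.9, 21.2 and 21.5 FPKM, with a log2 fold change of -0.23. *Luc7l*, which binds the U1 snRNP, was at 22.2, 20.4 and 17.5 FPKM and at 16.5, 16.3 and 16.8 FPKM, its groups differing by -0.26 on the log2 scale (limma, adjusted p = 0.230). Its unadjusted p-value was under 0.05 in 9 of 16 alternatives, and without vehicle replicate 3 its log2 fold change was -0.35 (adjusted p = 0.0532 by limma). The groups of these 4 genes and of *Sugp2* did not overlap, or 5 of 21, against 24.3% of all genes tested in either direction. All 5 were lower, against 13.6% of all genes tested that were apart and lower. Of the 21 genes 16 were lower and 5 higher on average, with a median log2 fold change of -0.050 against -0.021 over all genes tested. *Srrm1*, *Thrap3*, *Khdrbs1*, *Ssb*, *Magoh* and 11 others had unadjusted p-values above 0.05 and overlapping groups.

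**Figure D5:**
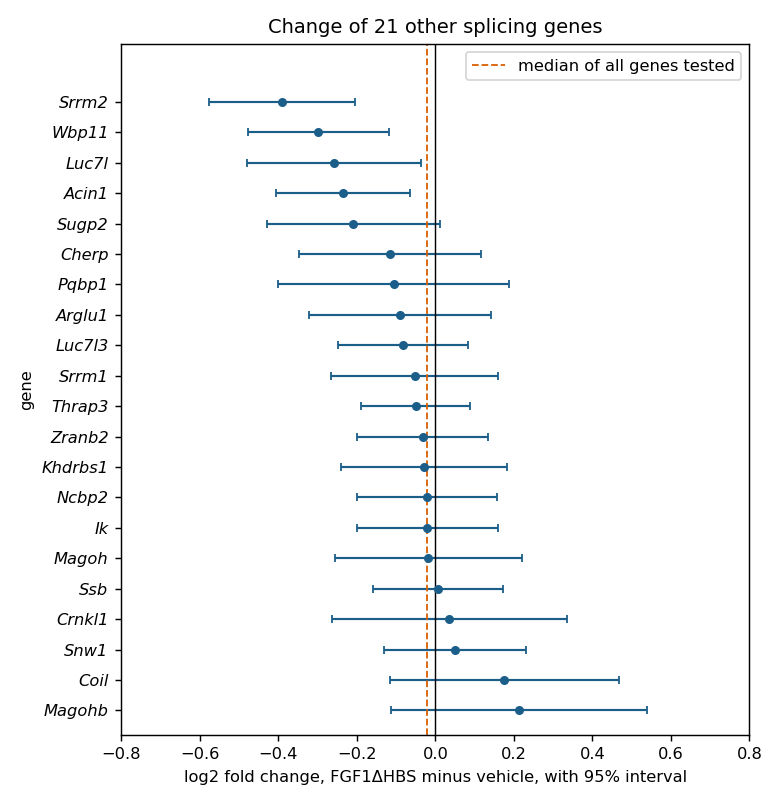
Log2 fold change (FGF1ΔHBS minus vehicle, log2(FPKM + 1) scale) of the 21 other splicing genes, with 95% intervals from limma, 3 mice per group, sorted by size; the dashed line is the median of all genes tested. The intervals of *Srrm2*, *Wbp11*, *Luc7l* and *Acin1* lie below 0, and those of the others cross it.

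The genes lie on 15 chromosomes. The longest transcript of the tested members had a median GC content of 46.7%, from 37.6% (*Prpf39*) to 55.9% (*Rbm10*), against a median of 49.9% over all genes tested, and correction for GC content turned the sign of *Prpf38a* (-0.048) and *Prpf39* (-0.039), whose log2 fold changes were both close to 0.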

How the data were processed

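Hearts of 6 mice, 3 per group, were analysed. Mice were grouped by the sample titles, and each column of values was matched to a mouse by the name in its title. The authors used Trimmomatic on the reads, and the deposited table gives an FPKM value for each gene in each mouse; the submitters' processing notes also name HISAT2 2.0, StringTie 1.3.0, Bowtie 0.12.2 and the build mm8, without their roles. The positions in the table fit GRCm38 instead, since 2101 of 4111 genes found in GENCODE M21 had the annotated end and a start 1 lower, as in a count from 0. GENCODE M21 coordinates are given. The paper describes single-end reads and the labels paired-end libraries.

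Values were used as log2(FPKM + 1), a mean of at least 1 FPKM was required, and the 2041 genes left were fitted with limma 3.58.1 in R 4.3.3 (eBayes with trend, no pairing), with Benjamini-Hochberg adjustment and a threshold of 0.05. FPKM values do not give read numbers; relative depth was read from the ratio of low values. The fit was checked on values with known changes. Processed copies of snRNP genes elsewhere in the genome can share reads with them, and how such reads were counted is not given in the sources used here. Deposited loci of 5 members were at least 1.2 times as long as the annotated gene. These were *Ddx28* (35.7 times), *Dhx58os* (12.8 times), *Snrpf* (9.68 times), *Prpf39* (1.39 times) and *Cpsf7* (1.38 times). The deposited locus of *Snrpd1* was shorter, at 0.429 times the annotated gene. Among the other splicing genes this held for *Wbp11* (1.85 times), *Acin1* (1.31 times) and *Sugp2* (1.31 times). It also held for *Snw1* (2.00 times), *Cherp* (2.13 times), *Ssb* (2.34 times) and *Crnkl1* (17.0 times).

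The members and lists were chosen with earlier results of these data known. The rule for named genes took members past the threshold, the most abundant member of each role, members whose groups do not overlap, members under the filter, and further splicing genes below an unadjusted p-value of 0.05; the remaining members are named to account for each of them, and *Sugp2*, the other splicing genes and the interferon-linked genes were named after their values were seen. Alternatives were a pseudocount of 0.1, no filter or a mean of 5 FPKM, median ratio scaling, quantile normalization, eBayes without trend or robust, the replicate number as a block, GC correction, removal of genes at 0, an adjusted p-value of 0.10 and leaving out each mouse. Same-numbered mice deviated from their group means with correlations of -0.0078, -0.16 and -0.22 over genes, so the numbers pair no mice.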

Additional observations from a re-analysis of the deposited data

How the results depend on the processing

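No member passed an adjusted p-value of 0.05 under any alternative. With all mice there were 0 at an adjusted p-value under 0.10 either, and without vehicle replicate 3 *Ddx58* (0.0907) and *Ddx27* (0.0970) were under it by limma. In that setting 82 of the 2041 genes tested passed 0.05, against 2 with all mice, and the share under 0.10 was not counted. The number of members at an unadjusted p-value under 0.05 was 1, and it was 0 with a mean of at least 5 FPKM, which drops *Ddx58* (19.7% of all genes tested there), and 2 with quantile normalization, where *Dhx36* joined as 1 higher member (17.3%). Leaving out each mouse gave from 1 to 6, of which 0 to 1 were higher, the 6 without vehicle replicate 3. Over all genes tested the number then ran from 231 to 494 of 2041, the 494 also without vehicle replicate 3. Members whose groups do not overlap numbered 3, but 1 with a mean of at least 5 FPKM (27.1% of all genes tested there). They numbered 2 with median ratio scaling (24.3%), where the groups of *Snrpd2* overlapped, and 6 with quantile normalization (23.6%). With a mouse left out they numbered 3 to 11, where the share of all genes tested was 30.2% to 44.4%. The 11 stand beside the 44.4%. The median log2 fold change of the members was between -0.099 and 0.026 with a mouse left out, the lowest without vehicle replicate 3. Of the 21 other splicing genes, 2 to 4 had an unadjusted p-value under 0.05 with a mouse left out. The 2 were without FGF1ΔHBS replicate 2, where 231 of the 2041 genes tested were at that level. The number was 3 with quantile normalization (17.3% of all genes tested) and with the replicate block (269 of 2041), both by the loss of *Luc7l*.

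Over all genes tested, 2 passed the adjusted threshold, 4 with a pseudocount of 0.1, 5 with robust eBayes and at an adjusted p-value under 0.10, 1 with median ratio scaling, quantile normalization or eBayes without trend, and 0 without a filter and in the fit with a replicate block, where 488 and 269 genes had an unadjusted p-value under 0.05. Leaving out a mouse gave 0 to 82, the 82 without vehicle replicate 3. The replicate block left 1 member at an unadjusted p-value under 0.05, *Ddx58* (limma, adjusted p = 0.305), and changed no other call of a member. Among genes with an unadjusted p-value under 0.05, 41.5% were higher, against 50.3% with median ratio scaling and 51.0% with quantile normalization; 33.6% were without vehicle replicate 3. The causes were not tested.

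Some log2 fold changes turned sign. With quantile normalization these were *Rbm10* (0.020), *Srsf5* (-0.059), *Khdrbs1* (0.033), *Magoh* (0.0054), *Ncbp2* (0.022), *Zranb2* (0.015) and *Tnnt2* (-0.12, from 0.16). With median ratio scaling they were *Ik* (0.0046), *Magoh* (0.0067) and *Ncbp2* (0.0027), and with GC correction *Prpf38a* (-0.048), *Prpf39* (-0.039) and *Ssb* (-0.058).

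The sign also turned for members and other splicing genes when 1 mouse was left out. For the members *Prpf38a* and *Srsf9* and the other splicing genes *Crnkl1* and *Zranb2* this included vehicle replicate 3. Among the members the log2 fold change ran from -0.30 to 0.0098 for *Cpsf4*, -0.11 to 0.13 for *Prpf38a* and -0.11 to 0.045 for *Rbm10*. It ran from -0.050 to 0.21 for *Snrnp25*, -0.16 to 0.039 for *Snrpd1*, -0.014 to 0.18 for *Srsf5* and -0.021 to 0.22 for *Srsf9*. Among the other splicing genes the range was -0.056 to 0.13 for *Crnkl1*, -0.065 to 0.032 for *Ik*, -0.10 to 0.047 for *Khdrbs1*, -0.094 to 0.074 for *Magoh*, -0.065 to 0.018 for *Ncbp2*, -0.22 to 0.016 for *Pqbp1*, -0.13 to 0.0018 for *Srrm1*, -0.026 to 0.047 for *Ssb* and -0.081 to 0.0066 for *Zranb2*.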

Other observations

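Genes whose transcripts are known to be spliced differently in heart and muscle were read at the level of the whole gene, which holds no information on isoforms. Of 21 such genes listed, 4 were analysed. *Mef2d*, a transcription factor with a muscle-specific exon, was at 42.0, 38.2 and 38.8 FPKM with vehicle and at 30.8, 32.0 and 33.1 FPKM with FGF1ΔHBS, with no overlap between the groups (log2 fold change -0.30, unadjusted p = 0.00259, adjusted p = 0.116 by limma). *Ldb3*, a protein of the Z disc of the sarcomere, was at 279, 338 and 372 FPKM and at 272, 270 and 253 FPKM, again with no overlap (log2 fold change -0.31, adjusted p = 0.230 by limma), the nearest vehicle mouse being replicate 1. Without vehicle replicate 3 the log2 fold change of *Ldb3* was -0.21 (unadjusted p = 0.0762 by limma), and its unadjusted p-value was under 0.05 in 9 of 16 alternatives, against 16 of 16 for *Mef2d*. *Lmo7* was at 78.2 to 91.6 and at 90.1 to 99.2 FPKM, and *Tnnt2*, cardiac troponin T, at 4160 to 4509 and at 4476 to 5101 FPKM, and the groups of these overlapped. Without vehicle replicate 3 *Lmo7* was at a log2 fold change of 0.23 (unadjusted p = 0.0217 by limma). Of the 4 genes, *Mef2d* and *Ldb3* had an unadjusted p-value under 0.05, against 17.1% of all genes tested, or *Mef2d* and *Lmo7* without vehicle replicate 3, against 24.2%, and none passed an adjusted p-value of 0.05.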
